A study of Mus musculus with 35 samples.

Results

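The first day that infected mouse embryonic fibroblasts spent in induction medium was examined by RNA sequencing, by setting 4 libraries of day 1 against 4 libraries of day 0, out of 35 libraries in the series. The libraries were taken by their labels, as the day 1 and day 0 libraries of the 4 arms that each lack 1 of the retroviral factors Jdp2, Glis1, Esrrb and Sall4, paired by arm. Day 1 has 1 library without Esrrb, 1 without Glis1, 1 without Jdp2 and 1 without Sall4, and day 0 has the same 4. All 8 libraries come from fibroblasts of E13.5 (mid-gestation) embryos at passage 2, which carried an Oct4-GFP transgene (a green fluorescent reporter of the pluripotency gene Oct4) from CBA/CaJ × C57BL/6J fathers and had mothers of a 129 strain. The substrain written for the mothers differs in every sample's label. All cells were infected for 48 hours with retroviruses for 3 of the 4 factors. They were then moved to iCD3, a medium for reprogramming to pluripotency, with a Rock inhibitor, a compound that blocks kinases that drive actomyosin contraction. The constituents of iCD3 are not given in the sources used here.

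The labels do not say whether the day 0 cells were taken before or after the change of medium, and one treatment label gives all 4 factors and the same 72 hours in iCD3 to every sample, which contradicts the sample names that were used here. Neither uninfected cells nor infected cells kept in their old medium were analysed here. The new medium, the Rock inhibitor and 1 more day of factor expression therefore cannot be told apart. Each arm has 1 library per day, so the spread behind every p-value is that of the day's change over 4 factor sets, and nothing says that the libraries came from separate cultures. In bulk RNA, fewer cells of a type and less RNA per cell cannot be told apart either.

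Fibroblasts in serum culture pull on their substrate through actin stress fibres. The tension keeps 2 kinds of transcription factor partner in the nucleus, MRTF, which works with SRF on genes of the contractile apparatus, and YAP, which works with TEAD factors on genes such as Ccn1 and Ccn2. TGF-beta signalling drives many of the same genes and the collagens of the matrix. During reprogramming, fibroblasts lose this programme and gain epithelial junctions before the pluripotency genes become active.

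Total expected counts were 1377656 to 2082112 per library, so 1 count was worth 0.48 to 0.726 CPM (a count's share of the library, scaled to a common total). Values of 4 libraries are given below in the order of arms without Esrrb, Glis1, Jdp2 and Sall4, and CPM are scaled by TMM, which corrects library size for a few very abundant genes. Each arm's missing factor was checked first. Esrrb had 9.91, 5721, 2094 and 6331 CPM on day 1, against 8.29, 3843, 1560 and 4725 CPM on day 0. Glis1 had 526, 0.485, 242 and 287 CPM on day 1, against 198, 4.25, 156 and 256 CPM on day 0. In each case the arm that lacks the factor stood far under the other 3. Jdp2 had 1590, 2687, 19.2 and 1192 CPM on day 1, against 874, 1488, 43.2 and 749 CPM on day 0. Sall4 had 5317, 3994, 2256 and 1.63 CPM on day 1, against 2697, 3385, 2205 and 10.6 CPM on day 0, so that these factors too were lowest in the arm that lacks them. No factor passed the test for a change between the days, at adjusted p from 0.12 for Esrrb to 0.85 for Sall4. That test includes the arm that lacks the factor, where Glis1, Jdp2 and Sall4 were lower on day 1. In the arms that carry it, each factor was higher on day 1 than on day 0 in every arm, and this was not tested apart. The counts do not separate a factor's retroviral transcripts from those of the cell's own gene. The share of counts from mitochondrial genes was 2.45 to 4.02% on day 1, against 1.61 to 2.74% on day 0.

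Of 13611 genes tested with an arm and a day term in edgeR, 1662 (12.2%) passed an adjusted p of 0.05, of which 815 (5.99%) were higher and 847 (6.22%) were lower on day 1. The genes that fell held a large part of the RNA: they made up 7.45 to 9.72% of all CPM on day 1, against 19.87 to 26.79% on day 0, values that the calls themselves chose. The genes that rose made up 9.32 to 11.1% on day 1, against 3.78 to 4.51% on day 0. Of the called genes, 1590 had the same sign in all 4 arms. The 2 days did not overlap at all in 984 of them, and over all genes tested 12.9% did not overlap. A change past 4-fold was seen in 298 genes that rose and 183 that fell, and the median log2 fold change of all genes was 0.02. The count was lower with any 1 arm left out, and was 635 higher and 693 lower without the arm lacking Esrrb. Such fits have fewer libraries. Whether a call is lost through the arm or through the smaller number was not tested, here or in the fits without an arm below. With both libraries without Jdp2 left out, 306 genes were higher and 435 lower, and with those without Sall4 left out, 478 were higher and 570 lower.

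**Figure D1:**
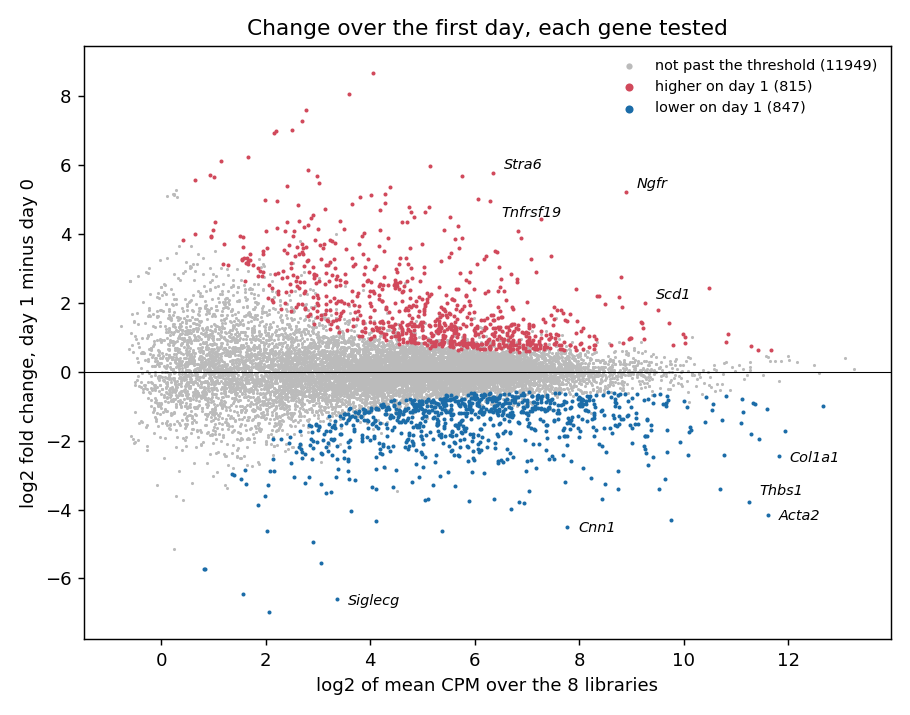
Log2 fold change of day 1 over day 0 (vertical axis) against the log2 of the mean CPM of the 8 libraries (horizontal axis) for each of the 13611 genes tested, with the 815 genes higher on day 1 in red, the 847 lower in blue and the rest in grey. The genes that fell reach much higher mean levels than most of those that rose, and the highest and lowest points at low CPM are fitted values of genes with few or no counts on 1 of the days.

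The largest rises at a mean of at least 10 CPM included genes with few or no counts on day 0. Lmo2, an adaptor protein of blood and vessel development (chr2:103957986-103981878 of GRCm38, plus strand), had 85.7, 4.37, 31.6 and 11.4 CPM on day 1, against no count in any day 0 library. It was at least 79.3-fold higher on day 1, taking 3 counts over the 4 day 0 libraries as the floor, and at least 31.5-fold with the arm without Esrrb left out. Dtx1, a ubiquitin ligase that modulates Notch, was also without a count on day 0 and had 82.8, 1.94, 9.84 and 2.17 CPM on day 1, at least 56.3-fold higher. This limit rests on the arm without Esrrb and is 9.35-fold when that arm is left out. In both genes the arm without Esrrb was the highest on day 1, and all 4 arms went the same way. With 1 arm left out, genes without counts on 1 day, such as these, no longer have the 4 libraries at 1 CPM that the filter asks for, and they give no value. Stra6, the cell surface receptor for retinol carried by its binding protein (chr9:58063788-58153996, plus strand), had 279, 199, 87.0 and 77.0 CPM on day 1, against 2.26, 3.77, 1.09 and 3.17 CPM on day 0. No day 1 library of Stra6 came near any day 0 library, and its log2 fold change was 5.78 ± 0.33 (SE, adjusted p = 1e-05). Ngfr, the low-affinity receptor of neurotrophins, had 972, 1141, 636 and 937 CPM on day 1, against 31.7, 72.2, 13.1 and 7.39 CPM on day 0, a log2 fold change of 5.22 ± 0.41 (adjusted p = 6.5e-05). It was high in all 4 arms on day 1, and no day 0 library came near it. Nefm, a neurofilament subunit, had 13.4, 76.7, 173 and 15.2 CPM on day 1, against 0.528 to 1.89 CPM on day 0. Also among the 12 largest rises were Lamc3 (a laminin chain), Krt23 (a keratin), Kcnq1 (a potassium channel), Fxyd2 (a small subunit of the sodium pump), Tnfrsf19 and Ston2 (an endocytic adaptor), with log2 fold changes of 4.89 to 5.38. In Lamc3 and Krt23 the lowest day 1 libraries lay within the range of day 0.

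Siglecg, a lectin of immune cells, headed the 12 largest falls by fitted log2 fold change. Contractile, matrix and YAP genes, which are given below, made up most of the rest, and the list also held Ccn5, a matricellular protein, Cavin2, a coat protein of caveolae, and Npr3, a receptor that clears natriuretic peptides. Siglecg had 1 count in the 4 day 1 libraries together and 146 in the 4 of day 0, a ratio of 146 with a 95% exact interval of 25.8 to 5809 for counting error only. Cavin2 had 0.583, 5.34, 1.04 and 30.9 CPM on day 1, against 24.1, 50.0, 45.4 and 318 CPM on day 0. The arm without Sall4 was the highest on both days, so that the days overlap, while each arm fell, and the log2 fold change was −3.75 ± 0.33 (adjusted p = 0.00011).

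**Figure D2:**
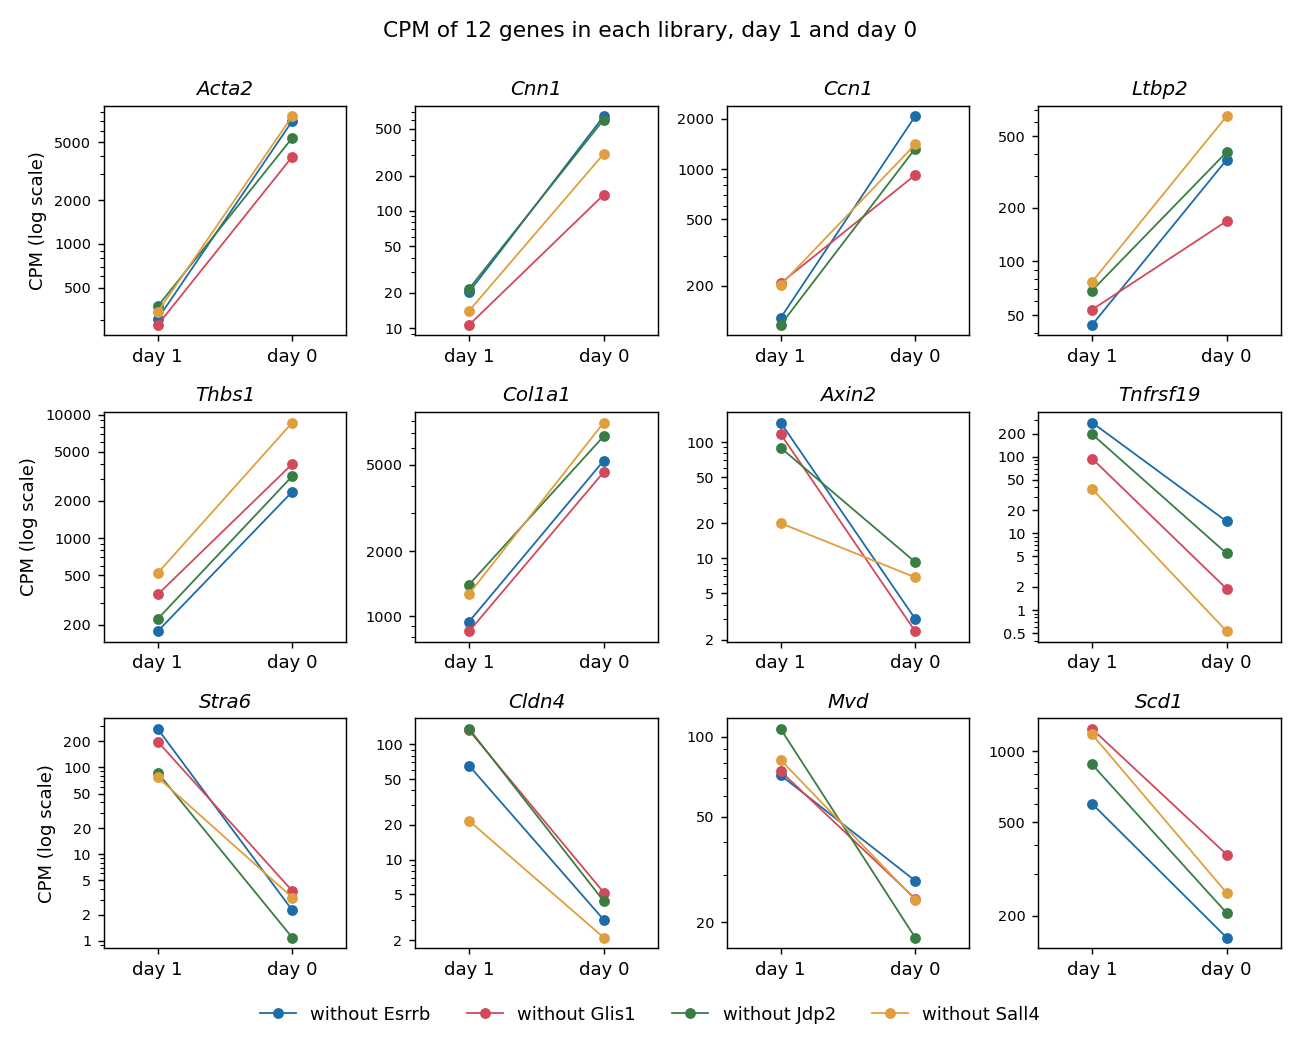
CPM on a log axis of 12 genes in each of the 8 libraries, day 1 at the left and day 0 at the right of each panel, with 1 point per library and a line joining the 2 libraries of an arm. In all 12 panels the 4 lines run the same way: Acta2, Cnn1, Ccn1, Ltbp2, Thbs1 and Col1a1 are lower on day 1, and Axin2, Tnfrsf19, Stra6, Cldn4, Mvd and Scd1 are higher.

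Contractile genes fell together. The gene lists used here and below were chosen with earlier results of these data known, so their shares are descriptions and not independent tests. All 24 genes of a list of SRF and MRTF targets and contractile cytoskeleton were tested and all 24 were lower on day 1, where 6.22% of all genes were lower, with a median log2 fold change of −1.92 against 0.02 over all genes. The list summed to 7368, 7420, 11628 and 12677 CPM on day 1, against 40292, 26994, 40117 and 45855 CPM on day 0. Day 0 without Glis1 was the lowest of its day, and still stood above every day 1 library. With 1 arm left out in turn, 23 or 24 members passed.

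Acta2, the smooth muscle actin that marks contractile myofibroblasts (chr19:34241090-34255590, minus strand), had 306, 278, 373 and 342 CPM on day 1, against 6979, 3972, 5348 and 7531 CPM on day 0. The 4 day 1 libraries were close to each other, and their mean of 325 ± 41.4 CPM was 18.3 times lower than the day 0 mean of 5958 ± 1616 CPM (SD, n = 4 libraries each). Its log2 fold change was −4.16 ± 0.21 (adjusted p = 6.4e-06). Cnn1, calponin of smooth muscle, had 20.4, 10.7, 21.7 and 14.1 CPM on day 1, against 642, 137, 601 and 306 CPM on day 0, and changed by −4.50 ± 0.25 (adjusted p = 1e-05). Lmod1, leiomodin, which starts actin filaments in smooth muscle, had 1.75, 1.46, 3.62 and 5.96 CPM on day 1, against 46.0, 75.0, 54.6 and 145 CPM on day 0, a change of −4.63 ± 0.30. Actg2, the enteric smooth muscle actin, changed by −4.00 ± 0.24. These 4 had the largest falls of the list. Tagln (transgelin) and Myl9 (the regulatory light chain of myosin) changed by −3.40 and −3.68. Day 0 without Glis1 was the lowest of its day in Acta2 and Cnn1.

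Some genes of the cytoskeleton that are not limited to contractile cells were also lower. Of those named here, at least Srf and Vcl are members of the same contractile list and are counted there. Actb, the cytoplasmic beta actin often taken as a constant reference, had 1130, 1058, 1289 and 1019 CPM on day 1, against 5184, 3431, 5032 and 4083 CPM on day 0, a log2 fold change of −1.97 ± 0.17 (adjusted p = 8.9e-05). Srf itself had 69.9, 46.1, 62.1 and 54.2 CPM on day 1, against 179, 109, 143 and 142 CPM on day 0, a change of −1.29 ± 0.17. Flna (filamin A), Vcl (vinculin) and Zyx (zyxin), which crosslink actin or tie it to adhesions, changed by −1.50, −1.64 and −1.55. By comparison, Gapdh had a log2 fold change of −0.03 ± 0.20 (adjusted p = 0.94). The actin genes are near-identical paralogs whose reads were divided by RSEM, so the split among Acta1, Acta2, Actb, Actg1 and Actg2 is uncertain.

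SRF binds a motif called the CArG box. Promoters were searched on both strands for this 10-base motif in the 250 bases before the start site (RefSeq starts, GRCm38.p6). Of 21 contractile genes with a promoter in the table, 9 (42.9%) held it, against 1.45% of the 10114 tested genes with a promoter and 1.62% of all 27025 genes. The list was chosen from general knowledge as targets of SRF among others, so a share above that of other genes was built into the choice. A match is a description of these letters and no sign of binding in these cells. The promoters of 5 genes of the list that fell are shown, to let the motif be seen in its setting, 5′ to 3′ on the strand of the gene with the CArG box in capitals. They lie at chr2:156775214-156775463 (Myl9, plus strand), chr14:20929148-20929397 (Vcl, plus), chr17:46556163-46556412 (Srf, minus), chr8:123894776-123895025 (Acta1, minus) and chr11:120348496-120348745 (Actg1, minus).
Myl9: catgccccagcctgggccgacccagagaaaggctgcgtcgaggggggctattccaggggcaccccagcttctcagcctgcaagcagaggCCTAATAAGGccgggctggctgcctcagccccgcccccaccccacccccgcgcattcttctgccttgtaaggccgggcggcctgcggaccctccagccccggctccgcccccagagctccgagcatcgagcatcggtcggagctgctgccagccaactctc
Vcl: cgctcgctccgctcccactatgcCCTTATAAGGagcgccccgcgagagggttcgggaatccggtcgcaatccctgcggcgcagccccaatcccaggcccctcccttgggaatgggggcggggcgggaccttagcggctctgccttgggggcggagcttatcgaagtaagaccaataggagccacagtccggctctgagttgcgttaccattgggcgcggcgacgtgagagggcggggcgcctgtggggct
Srf: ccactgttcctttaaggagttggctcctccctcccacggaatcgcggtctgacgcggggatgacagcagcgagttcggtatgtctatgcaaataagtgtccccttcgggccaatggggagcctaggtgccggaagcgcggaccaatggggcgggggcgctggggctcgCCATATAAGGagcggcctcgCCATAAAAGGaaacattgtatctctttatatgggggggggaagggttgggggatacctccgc
Acta1: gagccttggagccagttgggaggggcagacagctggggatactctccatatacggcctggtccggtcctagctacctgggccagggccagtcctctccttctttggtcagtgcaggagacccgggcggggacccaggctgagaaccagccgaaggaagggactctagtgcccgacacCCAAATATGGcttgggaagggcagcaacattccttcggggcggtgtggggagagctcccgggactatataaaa
Actg1: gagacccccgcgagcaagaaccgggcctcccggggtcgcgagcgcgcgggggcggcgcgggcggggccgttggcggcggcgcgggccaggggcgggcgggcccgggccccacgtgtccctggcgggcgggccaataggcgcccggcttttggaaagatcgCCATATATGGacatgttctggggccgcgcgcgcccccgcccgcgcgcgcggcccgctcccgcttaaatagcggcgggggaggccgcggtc

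YAP and TEAD targets moved the same way. Of 17 genes in the list, all tested, 12 were lower on day 1 and none was higher, with a median log2 fold change of −1.62. Without each arm in turn, 11 or 12 were lower. Ccn1, a matricellular protein, had 128, 207, 116 and 202 CPM on day 1, against 2078, 922, 1328 and 1407 CPM on day 0, a log2 fold change of −3.12 ± 0.29 (adjusted p = 0.00015). Its close relative Ccn2 had 29.1, 66.5, 52.8 and 755 CPM on day 1, against 736, 551, 966 and 2761 CPM on day 0. Every arm fell, but Ccn2 in the arm without Sall4 was still at 755 CPM on day 1, inside the day 0 range. F3, tissue factor, which starts blood clotting, and Ankrd1, an ankyrin repeat protein of strained muscle, changed by −3.80 ± 0.39 and −3.77 ± 0.44. Amotl2, an angiomotin that holds YAP in the cytoplasm, changed by −2.88. Tead1, Nuak2, Ptpn14, Fjx1 and Myof did not pass, at log2 fold changes of −1.06 to 0.35. The TEAD motif CATTCC stood in 7 of 11 promoters of the list (63.6%), against 12.87% of tested genes and 14.36% of all genes. This list was chosen as targets of TEAD, so here too a larger share was built into the choice. The promoters of Ccn1 (chr3:145649986-145650235, minus strand), Ankrd1 (chr19:36119845-36120094, minus) and Amotl2 (chr9:102717554-102717803, plus) are shown as examples, with CATTCC or its reverse complement in capitals.
Ccn1: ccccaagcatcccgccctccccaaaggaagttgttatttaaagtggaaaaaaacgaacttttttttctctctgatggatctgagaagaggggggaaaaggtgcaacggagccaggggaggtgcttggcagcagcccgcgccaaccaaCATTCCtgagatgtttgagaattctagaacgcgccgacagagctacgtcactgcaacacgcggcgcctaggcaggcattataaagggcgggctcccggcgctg
Ankrd1: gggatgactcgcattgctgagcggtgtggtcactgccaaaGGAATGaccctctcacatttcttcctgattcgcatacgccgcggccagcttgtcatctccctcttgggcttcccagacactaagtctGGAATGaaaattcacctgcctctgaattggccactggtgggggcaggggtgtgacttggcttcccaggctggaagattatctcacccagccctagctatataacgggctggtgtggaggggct
Amotl2: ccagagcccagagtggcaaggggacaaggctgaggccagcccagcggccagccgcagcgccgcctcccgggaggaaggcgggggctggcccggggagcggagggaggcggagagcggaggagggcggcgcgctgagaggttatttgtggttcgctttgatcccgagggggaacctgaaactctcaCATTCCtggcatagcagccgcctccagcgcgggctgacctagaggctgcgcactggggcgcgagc

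**Figure D3:**
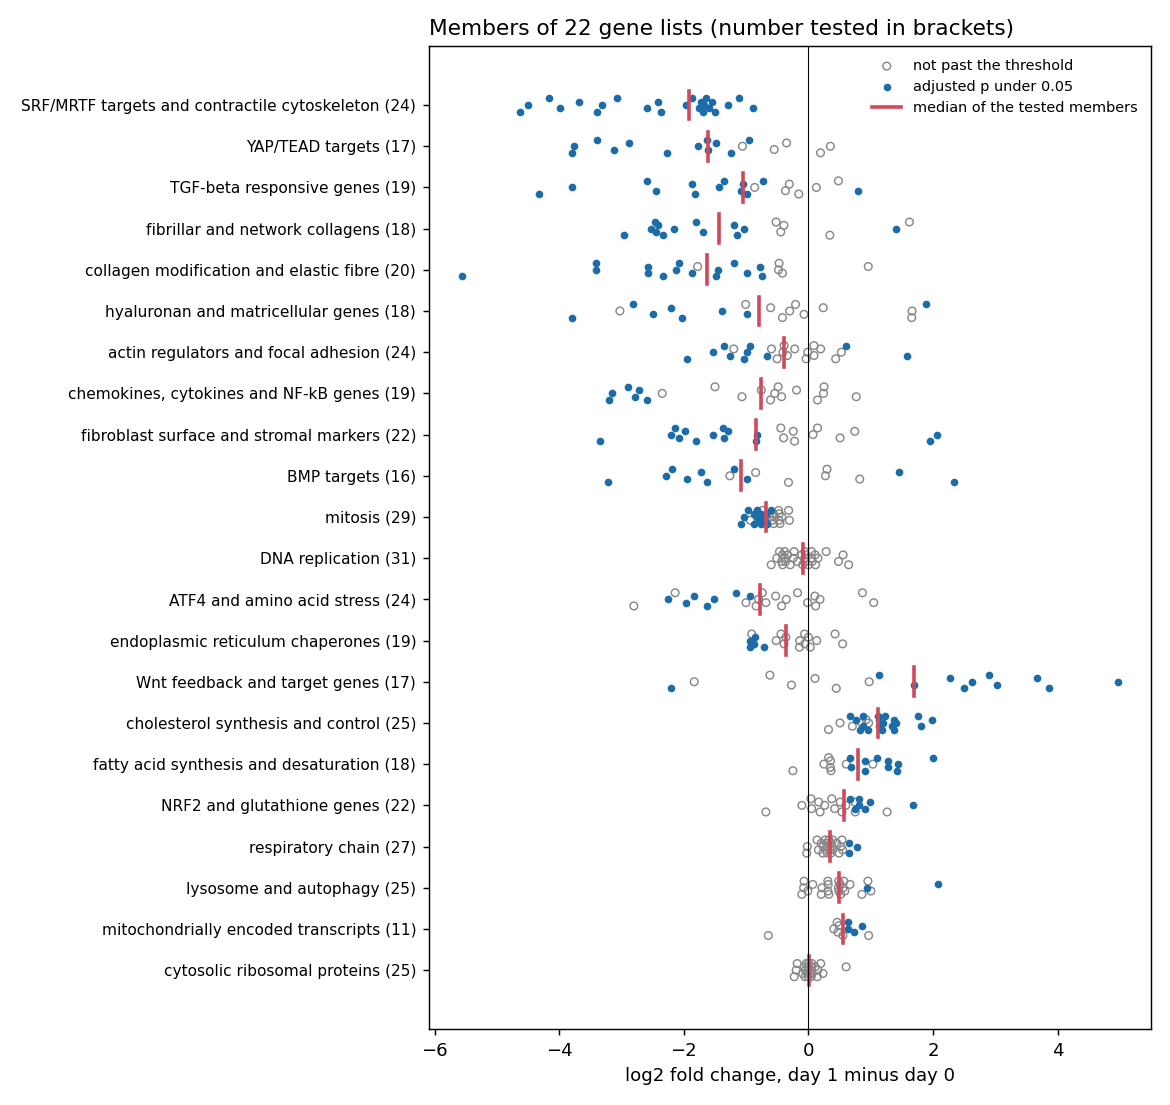
Log2 fold change of day 1 over day 0 of each tested member of 22 gene lists, with blue points at an adjusted p under 0.05, open points for the rest and a red bar at each list's median. The contractile list lies wholly left of 0 and in blue, matrix and chemokine lists lie mostly left, Wnt and lipid synthesis lists lie mostly right, and ribosomal proteins sit at 0.

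Genes that respond to TGF-beta fell with them: 12 of 19 were lower on day 1 and 1 was higher. Thbs1, thrombospondin, an activator of latent TGF-beta, had 177, 350, 222 and 522 CPM on day 1, against 2378, 3987, 3181 and 8624 CPM on day 0, a log2 fold change of −3.79 ± 0.18. Ltbp2, a latent TGF-beta binding protein, had 44.3, 53.8, 68.9 and 77.0 CPM on day 1, against 369, 168, 408 and 646 CPM on day 0, a change of −2.59 ± 0.26 (adjusted p = 0.00018). In both, the arm without Sall4 was the highest on each day and every day 1 library lay under every day 0 library. Inhba, the activin A subunit, changed by −2.45 ± 0.22. The 1 gene that rose was Tgfb1, the ligand, by 0.79 ± 0.23, and it did not pass without the arms lacking Esrrb, Jdp2 or Sall4 (0.91, 0.59 and 0.69). BMP targets had 8 of 16 members lower and 2 higher, and 5 were lower when the arm without Jdp2 was left out. Smad6, an inhibitory Smad induced by BMP, had 28.6, 19.4, 14.0 and 26.6 CPM on day 1, against 103, 93.0, 114 and 43.3 CPM on day 0. Id1 and Id3, the immediate targets of BMP Smads, changed by −0.99 and −1.73. Bambi, a pseudoreceptor that dampens BMP signals, and Hey1 rose by 1.46 ± 0.28 and 2.34 ± 0.40. Bambi did not pass without the arm lacking Jdp2 (1.39), nor Hey1 without that lacking Sall4 (2.12).

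Most genes of matrix fibres were lower. Of 18 collagen genes, 12 were lower and 1 higher, with a median of −1.44, and of 20 genes of collagen modification and elastic fibres, 15 were lower and none higher. Col1a1, the main chain of type I collagen, had 948, 855, 1404 and 1273 CPM on day 1, against 5238, 4639, 6793 and 7846 CPM on day 0, a log2 fold change of −2.45 ± 0.17 (adjusted p = 2.8e-05). Days did not overlap in Col1a1, and they overlapped in Col12a1 (−2.42) and Col8a1 (−2.53), whose arms differ widely. Lox, lysyl oxidase, which crosslinks collagen, had 39.6, 85.9, 56.9 and 112 CPM on day 1, against 400, 871, 698 and 1158 CPM on day 0, a change of −3.42 ± 0.18. Mfap5, a microfibril protein, had 2 counts in all on day 1 and 111 on day 0, a ratio of 55.5 with a 95% exact interval of 15.0 to 464. Col18a1, a basement membrane collagen, went the other way with 1923, 273, 1144 and 178 CPM on day 1, against 625, 93.0, 379 and 98.7 CPM on day 0. It rose in all 4 arms, by a log2 fold change of 1.41 ± 0.19, although the days overlap. Col4a1 and Col4a2, also of basement membranes, did not pass (−0.52 and −0.44). Among 18 tested hyaluronan and matricellular genes, 7 were lower, led by Thbs1 and by Fmod (fibromodulin) at −2.81 ± 0.40. The 1 that rose, Tnxb (tenascin X, 1.89), did not pass without the arms lacking Esrrb or Jdp2 (1.73 and 1.35).

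Genes of actin regulation and of focal adhesions, where the contractile fibres end, changed less. Of 24, 8 were lower and 2 higher, and 5 and 4 were lower without the arms lacking Glis1 and Jdp2. Rnd3, an atypical small GTPase that inhibits Rock, had 24.5, 72.3, 38.3 and 47.2 CPM on day 1, against 85.9, 129, 104 and 126 CPM on day 0, a change of −1.36 ± 0.20 (adjusted p = 0.002). Day 1 lay under day 0 in all libraries. Tln1, talin, which couples integrins to actin, changed by −1.03 ± 0.16. Itga6, the laminin-binding integrin chain, went the other way, with 79.8, 74.2, 328 and 83.0 CPM on day 1, against 21.9, 23.1, 72.1 and 53.9 CPM on day 0, a change of 1.59 ± 0.26. The kinases Rock1 and Rock2, the targets of the Rock inhibitor, did not pass at the RNA level, at 0.20 ± 0.26 and −0.41 ± 0.27.

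Signals and enzymes that fibroblasts release were lower in part. Of 26 chemokine, cytokine and NF-kB genes, 19 were tested and 6 were lower in edgeR and in DESeq2, with a median log2 fold change of −0.76. Cxcl12, which attracts blood stem cells and immune cells, had 18.1, 31.5, 21.2 and 81.9 CPM on day 1, against 93.5, 703, 171 and 581 CPM on day 0, a log2 fold change of −3.20 ± 0.32 (adjusted p = 0.00018). Ptgs2, the inducible cyclooxygenase, had 8.16, 13.6, 6.21 and 26.0 CPM on day 1, against 44.5, 62.3, 76.0 and 259 CPM on day 0. In both genes no day 1 library reached the day 0 range. Csf1, the growth factor of macrophages, and Tnfaip3, an inhibitor of NF-kB, changed by −2.72 and −2.78. Ccl7, a chemokine for monocytes, changed by −3.15 ± 0.58, and did not pass without the arm lacking Jdp2 (−2.61). Among 16 tested genes of proteases and their inhibitors, 7 were lower and 2 higher (1 higher without each arm in turn). The lower ones include the aggrecanases Adamts5 and Adamts1 (−2.77 and −2.23) and Plau, urokinase (−2.09). Spp1, osteopontin, is 1 of the 2 higher genes counted here, although it is a secreted matrix protein and neither a protease nor an inhibitor. It rose with 49.5, 465, 596 and 1063 CPM on day 1, against 36.2, 50.0, 101 and 227 CPM on day 0. Immediate-early genes of the serum response, 23 in all, had 6 lower and 2 higher, with 2 lower without the arm lacking Jdp2. Klf2 and Klf6 fell by 2.15 and 1.71 on the log2 scale, while Fosb, Fosl1, Jun, Junb, Egr1 and Myc did not pass, at −0.63 to −0.24. The 2 higher ones, Fos and Klf10, had 0.74 and 0.72, and neither passed in DESeq2 or without the arms lacking Glis1 (0.70 and 0.55), Jdp2 (0.77 and 0.79) or Sall4 (0.76 and 0.75).

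Most Wnt feedback and target genes moved upward. Of 17 tested of 18, 10 were higher and 1 lower on day 1, where 5.99% of all genes were higher, with a median log2 fold change of 1.70. Without the arm lacking Glis1, 6 were higher. The list summed to 1583, 1525, 1102 and 926 CPM on day 1, against 969, 1026, 938 and 1023 CPM on day 0. The sum was thus lower on day 1 in the arm without Sall4. Axin2, the scaffold that destroys beta-catenin and the most general Wnt target, had 147, 117, 89.6 and 20.1 CPM on day 1, against 3.02, 2.36, 9.29 and 6.86 CPM on day 0. All day 1 libraries stood above all of day 0, with the arm without Sall4 lowest on day 1, and the log2 fold change was 3.87 ± 0.54 (adjusted p = 0.0012). Tnfrsf19, a receptor of the TNF family induced by Wnt (chr14:60963875-61046490, minus strand), had 279, 94.6, 197 and 38.0 CPM on day 1, against 14.3, 1.89, 5.46 and 0.528 CPM on day 0, a change of 4.96 ± 0.29 (adjusted p = 1e-05). Sp5, a transcription factor under Wnt control, changed by 3.03 ± 0.34, Nkd1, an inhibitor of the pathway, by 2.90 and Tcf7 by 2.27. Lgr5, the receptor of R-spondins, had 0.583, 9.70, 20.7 and 9.76 CPM on day 1, against 0.754, 1.42, 0 and 0.528 CPM on day 0. It was higher in 3 arms and not in the arm without Esrrb. Lef1, Nkd2, Wif1, Dkk2, Ccnd2 and Fzd7 did not pass, at −1.83 to 0.98, and Dkk3 was lower (−2.21 ± 0.31). The letters CTTTGAT of a TCF site stood in 2 of 12 promoters of the list (16.7%), those of Sp5 and Tnfrsf19, against 2.7% of tested genes and 3.72% of all genes. This list too was chosen as targets of the pathway whose motif was counted. Both are printed with that motif or its reverse complement in capitals, from chr2:70474673-70474922 (plus strand) and chr14:61037988-61038237 (minus).
Sp5: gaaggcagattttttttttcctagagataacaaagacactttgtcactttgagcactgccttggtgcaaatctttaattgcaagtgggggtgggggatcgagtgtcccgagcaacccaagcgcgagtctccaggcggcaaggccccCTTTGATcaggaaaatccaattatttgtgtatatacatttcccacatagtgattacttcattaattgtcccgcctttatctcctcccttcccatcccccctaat
Tnfrsf19: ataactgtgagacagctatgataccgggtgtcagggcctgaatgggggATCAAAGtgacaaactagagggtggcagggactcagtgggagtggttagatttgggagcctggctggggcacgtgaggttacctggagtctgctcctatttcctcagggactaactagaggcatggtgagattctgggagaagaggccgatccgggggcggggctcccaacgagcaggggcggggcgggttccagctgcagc

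Genes of other developmental pathways were called in part, in shares above the 12.2% of all genes. Among 15 tested Hedgehog and Notch genes, 5 were higher and none lower, with 7 at an unadjusted p under 0.05. DESeq2 called 2 higher, and edgeR called 1, 2 and 1 without the arms lacking Esrrb, Glis1 and Jdp2. Hes6 had 17.5, 53.8, 24.9 and 67.8 CPM on day 1, against 9.80, 16.0, 11.5 and 19.0 CPM on day 0, and was higher in every arm. Among 15 tested retinoid genes, 3 were higher and 2 lower, with 1 lower without the arms lacking Glis1 or Sall4. Besides Stra6, Aldh1a2, an enzyme that makes retinoic acid, rose by 1.98 ± 0.32, while Cyp26b1, which degrades retinoic acid, fell by 1.13. Rarb and Cyp26a1, general targets of the retinoid receptors, did not pass (−0.51 and 0.05). Of 17 tested LIF and STAT3 genes, 3 were higher and 3 lower, and 1 was higher and 1 lower without the arm lacking Jdp2. Without the arms lacking Esrrb, Glis1 and Sall4, 2, 2 and 1 were higher and 2 were lower. Socs3, the feedback inhibitor of this pathway, had 307, 140, 48.7 and 109 CPM on day 1, against 61.1, 7.08, 16.4 and 26.9 CPM on day 0, a change of 2.48 ± 0.36 (adjusted p = 0.0016).

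Genes of lipid synthesis rose at most steps of the pathway. Of 25 genes of cholesterol synthesis and its control, 19 were higher and none lower, all 25 had a positive log2 fold change, and the median was 1.11. The list summed to 3601, 2859, 5057 and 5513 CPM on day 1, against 1894, 2044, 1838 and 1878 CPM on day 0, without overlap. Fewer members passed without the arm lacking Jdp2 (9) or Sall4 (12). Mvd, an enzyme of the mevalonate steps, had 71.7, 74.2, 107 and 81.9 CPM on day 1, against 28.6, 24.5, 17.5 and 24.3 CPM on day 0, a log2 fold change of 1.81 ± 0.24 (adjusted p = 0.00092). Nsdhl, of the sterol steps, changed by 1.76 ± 0.22. Sqle, squalene epoxidase, had 180, 159, 196 and 178 CPM on day 1, against 77.6, 76.4, 84.2 and 90.3 CPM on day 0, and changed by 1.11 ± 0.17. The 4 arms were alike in Sqle on each day. The sterol sensor Insig1 had a log2 fold change of 0.93 and did not pass. The sterol element TCACNCCAC, where N is any base, stood in 1 of 17 promoters of the list (5.9%), against 1.26% of tested genes and 1.22% of all genes. The list was chosen as genes of this pathway, and its share is a single promoter, too few to compare. That promoter, of Hmgcs1 (chr13:119690101-119690350, plus strand), whose enzyme acts early in the pathway and which changed by 1.19 ± 0.21, is shown with the element in capitals.
Hmgcs1: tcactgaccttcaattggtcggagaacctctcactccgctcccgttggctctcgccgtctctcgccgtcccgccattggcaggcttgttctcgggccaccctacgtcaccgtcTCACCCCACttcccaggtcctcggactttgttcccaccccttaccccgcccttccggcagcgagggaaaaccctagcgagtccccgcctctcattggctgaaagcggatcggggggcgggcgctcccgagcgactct

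Fatty acid synthesis followed. Of 18 tested genes, 10 were higher and none lower, and 4 without the arm lacking Jdp2. Scd1, the desaturase that makes oleate, had 599, 1248, 881 and 1183 CPM on day 1, against 161, 364, 205 and 250 CPM on day 0, a log2 fold change of 2.00 ± 0.17 (adjusted p = 8.9e-05). Fasn, fatty acid synthase, had 1261, 886, 1346 and 1472 CPM on day 1, against 456, 415, 485 and 464 CPM on day 0, and changed by 1.42 ± 0.17. Acly, which supplies acetyl-CoA, changed by 1.44 ± 0.18. Each of these 3 enzymes was higher in every day 1 library than in any day 0 library. Of 24 tested genes of lipid droplets and fatty acid oxidation 1 was higher. It was Cpt1a, which admits fatty acids to mitochondria, at 1.90 ± 0.42, and it did not pass without the arm lacking Sall4 (1.55). Of 7 tested sterol efflux genes, 2 were higher and 1 lower, with a median of −0.34. The transporter Abcg1 rose by 1.92 ± 0.34. The transporter Abca1 had 8.16, 41.2, 13.46 and 11.9 CPM on day 1, against 30.9, 94.8, 18.6 and 16.9 CPM on day 0. Abca1 was lower in each arm (−1.02 ± 0.28, adjusted p = 0.038), and it did not pass in DESeq2 or without the arms lacking Esrrb, Glis1 or Jdp2 (−0.78, −0.93 and −1.18).

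Other metabolic lists held called genes in shares above and below the 12.2% of all genes. Of 22 NRF2 and glutathione genes, 7 were higher, among them the pentose phosphate enzymes Tkt and G6pdx (0.98 and 0.91). Without the arms lacking Glis1, Jdp2 and Sall4 the count was 3, 0 and 4. Of 13 tested genes of metallothioneins and iron handling 5 were higher, and 3 without the arm lacking Jdp2. The metal-binding Mt1 had 67.6, 233, 85.4 and 102 CPM on day 1, against 19.6, 35.9, 21.3 and 18 CPM on day 0, and Mt2 changed by 2.60 ± 0.45. Both metallothionein genes were higher in all arms, and reads may be shared between them. Tfeb, the regulator of lysosomal genes, had 73.4, 64.5, 95.8 and 83.0 CPM on day 1, against 13.6, 20.3, 23.5 and 17.4 CPM on day 0, a change of 2.07 ± 0.21 (adjusted p = 0.0002). Of 25 lysosome and autophagy genes, Tfeb and Mcoln1 were the 2 that passed, a smaller share than that of all genes. DESeq2 called 5 higher, and edgeR called 5, 1, 2 and 1 without the arms lacking Esrrb, Glis1, Jdp2 and Sall4. Amino acid stress genes under ATF4 were lower in 7 of 24 and higher in none. Asns, asparagine synthetase, had 26.2, 33.0, 39.9 and 13.0 CPM on day 1, against 124, 56.2, 93.4 and 69.2 CPM on day 0, and Pck2 changed by −1.84 ± 0.21. Endoplasmic reticulum chaperones were lower in 5 of 19, led by Hsp90b1 (−0.94 ± 0.17), with 3 lower without the arm lacking Glis1 and 1 without that lacking Sall4. Glycolysis had 4 of 23 genes higher and 1 lower, with 2 and 1 higher without the arms lacking Glis1 and Jdp2, and 4 lower without the arm lacking Glis1. Aldoc, an aldolase, changed by 2.54 ± 0.40. Slc16a3, which exports lactate, fell by 1.88 on the log2 scale. Of 16 tested hypoxia genes 3 were higher and 4 lower (2 lower without the arm lacking Jdp2), and Adm, adrenomedullin, changed by −3.69 ± 0.31. Respiratory chain genes had 3 of 27 called, all higher, also a smaller share than that of all genes, with a median of 0.35 and none higher without the arm lacking Glis1, Jdp2 or Sall4. Of 11 tested mitochondrially encoded transcripts, 4 were higher (mt-Nd1, mt-Nd2, mt-Nd4 and mt-Nd5, at 0.63 to 0.86). Without the arm lacking Jdp2 none passed, and without that lacking Sall4 2 did. DESeq2 called 6. Mitochondrial reads depend on how RNA was handled as well as on the cells, and the part of this in the result was not tested.

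Mitosis genes were lower. All 29 mitosis genes had a negative log2 fold change, 15 passed as lower, and the median was −0.68. Prc1, which bundles the spindle midzone, had 85.1, 49.5, 62.6 and 51.5 CPM on day 1, against 152, 93.4, 143 and 133 CPM on day 0, a change of −1.08 ± 0.18 (adjusted p = 0.0035). Kif20a, a kinesin of cytokinesis, changed by −1.04 ± 0.17. In Prc1 each day 1 library lay under each day 0 library. The count is fragile: 2 and 4 passed without the arms lacking Jdp2 and Sall4, and 10 without each of the other 2 arms. No gene of 31 in DNA replication passed in edgeR or in DESeq2, 3 were at an unadjusted p under 0.05, and the median was −0.09. The difference between the 2 lists was not tested. Of 24 CDK inhibitors and p53 targets, 4 were lower and 2 higher. Without the arms lacking Jdp2 or Sall4 none was called, and without that lacking Esrrb 3 were lower and none higher. Cdkn1c, the inhibitor p57, had 1645, 46.1, 251 and 1078 CPM on day 1, against 253, 83.5, 49.7 and 73.9 CPM on day 0. It was far higher in 3 arms and lower without Glis1, and its call did not hold in DESeq2 or without the arms lacking Esrrb, Jdp2 or Sall4 (1.92, 2.10 and 1.52). Cdkn1a, p21, did not pass (0.30 ± 0.25).

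Genes of epithelial junctions rose, and some mesenchymal regulators fell. Of 24 genes of epithelial junctions and simple keratins, 14 were tested, 8 were higher and 1 lower, with 5 higher without the arm lacking Glis1. The 1 lower gene did not pass in DESeq2. Cldn4, a claudin of tight junctions, had 65.3, 132, 136 and 21.7 CPM on day 1, against 3.02, 5.19, 4.37 and 2.11 CPM on day 0, a log2 fold change of 4.49 ± 0.29 (adjusted p = 1.9e-05). Dsp, desmoplakin of desmosomes, had 114, 257, 548 and 380 CPM on day 1, against 20.4, 41.1, 25.7 and 26.9 CPM on day 0. Both were apart on the 2 days in every library. Cdh1, E-cadherin, had 225, 15.5, 36.8 and 18.4 CPM on day 1, against 24.1, 0.944, 7.10 and 0.528 CPM on day 0. Each arm rose, by a log2 fold change of 3.21 ± 0.33, while the arm without Esrrb was so high on day 0 that the days overlap. Epcam, which is not among the tested genes, had 0.583, 5.34, 1.55 and 1.63 CPM on day 1, against 0.754, 0.472, 0.546 and 0.528 CPM on day 0. Of 20 tested transition regulators of mesenchymal cells, 5 were lower, Osr1 (−2.57), Prrx2 (−2.27), Foxs1 (−2.25), Snai2 (−1.39) and the intermediate filament Vim (−1.16). Snai2 did not pass without the arms lacking Glis1 or Jdp2 (−1.15 and −1.37). Snai1, Zeb1, Zeb2, Twist1 and Prrx1 did not pass, at −0.56 to −0.31.

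The fibroblast identity of the label was checked against 11 markers, none of which was at 0 in all 8 libraries. They summed to 3298 to 5559 CPM on day 1, against 12221 to 17592 CPM on day 0, and 6 of them were lower. In the longer list of fibroblast surface and stromal genes, 12 of 22 were lower, such as Thy1 with 42.5, 60.6, 26.4 and 92.7 CPM on day 1, against 146, 159, 185 and 483 CPM on day 0. Pdgfra, Dcn and Lum did not pass, at 0.51, −0.40 and 0.74. Nt5e and Sfrp2 were higher (2.06 ± 0.34 and 1.95 ± 0.40). Markers of other cells were low or moved differently. The 8 macrophage markers summed to 9.32 to 20.1 CPM on day 1, against 21.9 to 29.0 CPM on day 0, and none was called. The 6 endothelial markers summed to 15.2 to 90.7 CPM on day 1, against 13.2 to 26.8 CPM on day 0, with Tie1 at 0 in all 8 libraries and Cdh5 called higher. The 5 epithelial markers summed to 84.9 to 623 CPM on day 1, against 27.4 to 263 CPM on day 0. The 4 neural and glial markers summed to 5.42 to 18.1 CPM on day 1 and 10.6 to 29.5 CPM on day 0. Skeletal muscle markers, 4 in all, summed to 7.25 to 9.70 CPM on day 1 and 45.3 to 185 CPM on day 0, mostly from Acta1, which is also in the contractile list. Red blood cell markers, also 4, reached at most 19.2 CPM on day 1 and 0.472 CPM on day 0, with Hbb-bs at 0. The part of other cell types in the results was not tested.

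Pluripotency genes were mostly too low to test. Of 29 genes, 18 were too low to be tested, and of the 11 tested, 3 were higher and 1 lower. The tested genes include the delivered factors Esrrb and Sall4, which did not pass. Sox2 had 5.25, 0.485, 32.6 and 13.6 CPM on day 1, against 0, 0.944, 2.19 and 1.06 CPM on day 0, a rise in 3 arms and not in the arm without Glis1. Tfcp2l1 and Tbx3 changed by 2.78 ± 0.73 and 1.02 ± 0.26. Of the 3 higher calls, edgeR made 1 and 2 without the arms lacking Esrrb and Glis1, and none without that lacking Jdp2 or Sall4. Pou5f1 (Oct4) had 18.1, 2.43, 0.518 and 0 CPM on day 1, against 3.02, 0, 0.546 and 0.528 CPM on day 0, and Nanog had at most 0.528 CPM in any library. Genes of the 2-cell stage and germ line, 18 in all, were too low to be tested, with a sum of at most 5.7 CPM on day 1 in 3 arms and 92.7 CPM without Glis1, against 3.02 to 4.25 CPM on day 0. Several broad lists gave no call in edgeR or DESeq2. None of 25 ribosomal protein genes passed, with 1 at an unadjusted p under 0.05 and a median of 0.01. None of 11 MHC class I genes (3 unadjusted), 16 circadian genes (4 unadjusted) and 9 tested macrophage genes (1 unadjusted) passed. Interferon-stimulated genes had 1 of 19 higher and 1 lower, and no lower one in any fit that left out an arm.

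The same test was applied to each following day of the 4 arms, to set the first day beside the others. It calls changes that the arms share, so its counts can miss a change that differs between arms. Neighbouring steps share libraries, so the counts are side by side and not independent. Day 2 against day 1 gave 480 called genes (3.4% of 14111), day 3 against day 2 gave 46 (0.323%), day 4 against day 3 gave 4 (0.0278%) and day 5 against day 4 gave 1 (0.00692%). Day 6 against day 5 and day 7 against day 6 gave none in edgeR, with 548 and 626 genes at an unadjusted p under 0.05. The median absolute log2 fold change was 0.391 in the first step, 0.236 in the second and 0.147 to 0.171 in the later ones. The root mean square of the log2 change of an arm was 0.929 to 1.08 in the first step and at most 0.808 in any later step of any arm.

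**Figure D4:**
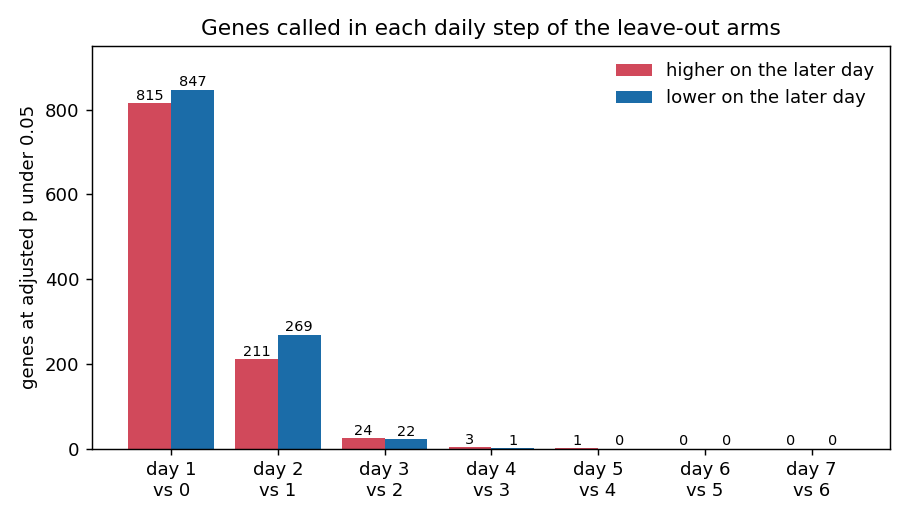
Number of genes at an adjusted p under 0.05 in each daily step of the 4 leave-out arms, higher on the later day in red and lower in blue. The first step has 815 and 847 genes, the second 211 and 269, and the steps from day 4 on have 4 or fewer in all.

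Several of the changes went on in the second day. Of the 24 contractile genes, 8 were lower on day 2 than on day 1 and 1 was higher, and 7 of 18 collagen genes, 10 of 19 tested genes of collagen modification and 11 of 29 mitosis genes were lower. Acta2 changed by a further −2.88 ± 0.21 on the log2 scale (adjusted p = 1.4e-05) and Col1a1 by −1.29 ± 0.11 (adjusted p = 2.9e-05). Scaled over all 32 leave-out libraries, Acta2 averaged 6155, 336, 47.6, 33.6, 30.7, 34.5, 63.8 and 85.9 CPM from day 0 to day 7. The contractile list averaged 39624, 10098 and 8405 CPM on days 0, 1 and 2, and 7444 CPM on day 7. Most of its drop therefore fell in the first step. The YAP list had 2 lower genes in the second step, and its sum averaged 7415, 2490 and 2212 CPM on days 0, 1 and 2.

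Of the Wnt genes none was called in the second step in either direction. Axin2 averaged 5.59, 97 and 97.2 CPM on days 0, 1 and 2, and 119 CPM on day 7. Cholesterol synthesis genes summed to 1980, 4398 and 3725 CPM on days 0, 1 and 2, with 4 of 25 lower in the second step. Mitochondrially encoded transcripts had 7 of 11 higher in the second step. Other genes rose again on day 2. Among them, Pdk1, a kinase that inhibits pyruvate dehydrogenase, rose by 1.74 ± 0.12 (adjusted p = 1.3e-05), Cpt1a by 0.95 ± 0.15 and Sox2 by 1.32 ± 0.28.

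**Figure D5:**
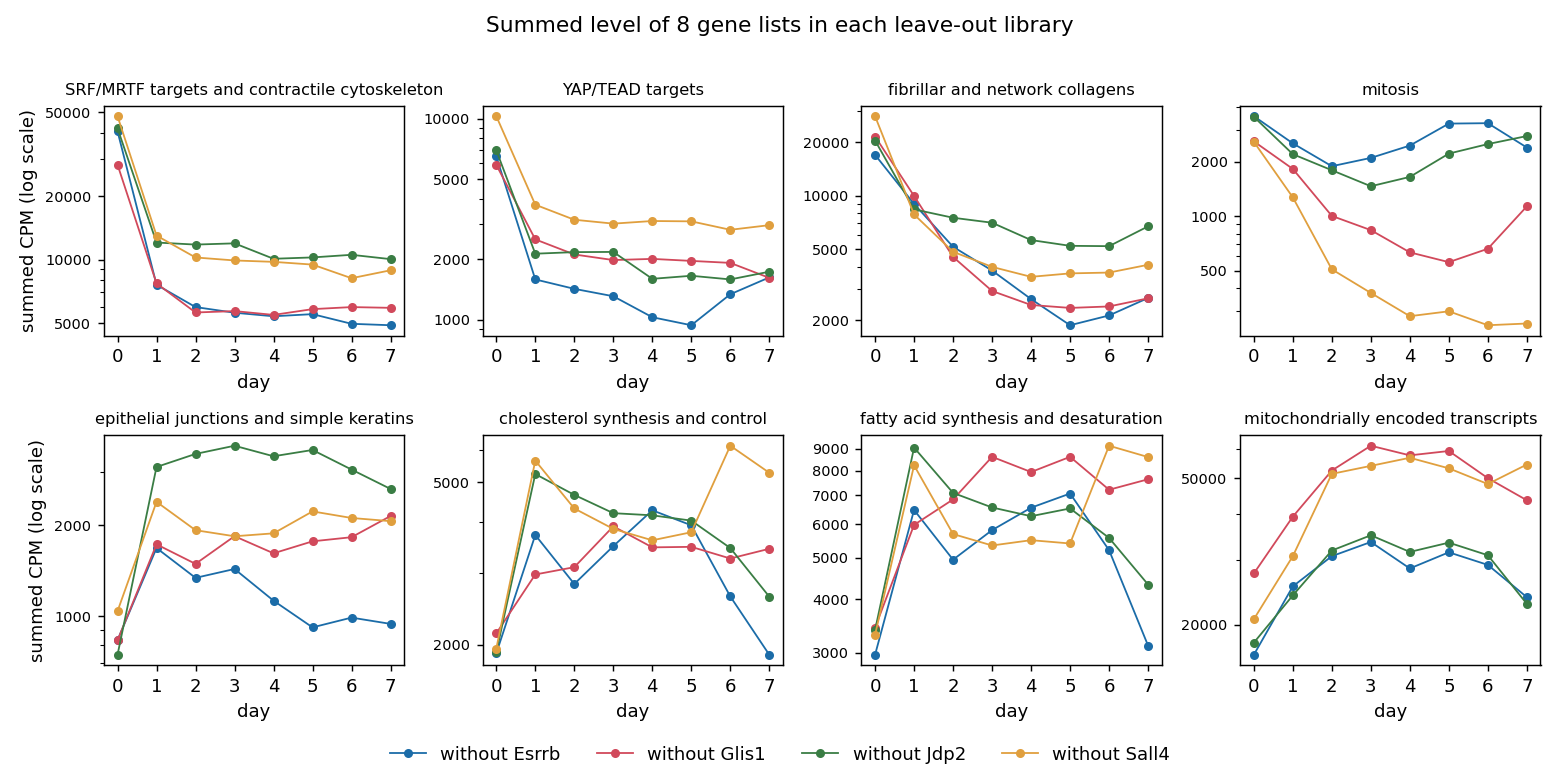
Summed CPM on a log axis of 8 gene lists in each leave-out library, by day, with 1 line per arm and CPM scaled over all 32 leave-out libraries. The contractile, YAP and collagen sums drop between day 0 and day 1 in all 4 arms and the epithelial and both lipid sums rise. The mitosis sums part between arms by day 2, from 2573 to 3562 CPM on day 0 to 508 to 1886 CPM on day 2. The mitochondrial sums go on up to day 3 in every arm.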

How the data were processed

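RNA was sequenced as mRNA libraries on an Illumina NextSeq instrument, per the labels' protocols. The submitters' processing notes name bcl2fastq, Bowtie2, RSEM and build mm10, without versions. The deposited values are expected counts per gene, which RSEM estimates by dividing ambiguous reads between genes, and TPM, which the authors' files scale by effective length. Expected counts were rounded to whole numbers. Of 54752 genes, 54723 had a symbol in GENCODE M21.

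The main test was edgeR 4.0.16 (R 4.3.3), a quasi-likelihood F test on TMM-scaled counts of genes that reached 1 CPM in 4 or more of the 8 libraries, with arm and day as terms and Benjamini-Hochberg adjustment over all genes tested. Every adjusted p in the text is from this test unless another is named. Errors beside log2 fold changes are standard errors. The arm was taken as the pair. Deviations from the day means correlated at 0.236 to 0.444 within arms and at −0.233 to 0.065 between them. Taking deviations from the day means itself pushes the values between arms down when those within arms are positive. On simulated data with the real means, 76 of 200 genes changed by 1 on the log2 scale were recovered with 4 false calls among 13152 genes, and 173 of 200 changed by 2 with 8 false calls among 13155. The simulated spread depended on a gene's level only, and the change was the same in all arms. These counts therefore do not give the recovery or false calls of the real comparison. The smallest fits, without 1 arm, have both libraries of that arm left out. Intervals and the floor of 3 counts cover counting error only.

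Genes were named by rule: the delivered factors, the 12 largest rises and falls at a mean of at least 10 CPM with 1 sign in 4 arms, and up to 4 called members of each list per direction at 3 CPM or more. A few genes that the rule picks are not reported here. Other list members, such as Actb, Srf, Myl9, Tagln, Flna, Sqle and Tln1, were named after their values were seen. The comparison and the 55 gene lists were chosen with earlier results of these data known. Library kits and runs differ in the series and are not assigned to libraries, and whether strand was used in counting is not given in the sources used here. Alternatives were DESeq2 1.42.0, its size factors in edgeR, no low-count filter, limma-trend (limma 3.58.1) on log2(TPM + 1), no arm term, all 32 leave-out libraries in 1 fit, libraries thinned to 1377639 counts, and each arm left out. The 3 libraries with the full factor set have neither day and were not used here.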

Additional observations from a re-analysis of the deposited data

Results flagged for a closer look

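Single libraries stood apart from the other 3 of their day in 30 gene and day groups among the genes named. Chance marks about 1 group in 20, and each of the 196 named genes gives 1 group per day. Many of the 30 would therefore be marked by chance alone. On day 1 without Esrrb these were Dtx1 (82.8 CPM), Cdh1 (225 CPM), Bst2 (80.4 CPM) and Gbp2 (4.66 CPM). On day 1 without Glis1 they were Siglecg (0.485 CPM), Btg2 (123 CPM), Dkk3 (96.5 CPM), Abca1 (41.2 CPM) and Cldn3 (53.8 CPM). On day 1 without Jdp2 they were Klf6 (66.8 CPM), Trib3 (6.21 CPM) and Itga6 (328 CPM). On day 1 without Sall4 they were Cavin2 (30.9 CPM), Npr3 (10.8 CPM), Ccn2 (755 CPM) and Pdgfb (150.2 CPM). All of these were the highest of their day.

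On day 0 without Esrrb, Kcnq1 (3.02 CPM), Cdkn1c (253 CPM) and Itgb4 (16.6 CPM) stood above the other 3 libraries. On day 0 without Glis1, Nefm (1.89 CPM), Heyl (1.89 CPM), Osr1 (206 CPM), Itgb5 (556 CPM) and Perp (23.1 CPM) stood above the others and Pdia6 (278 CPM) under them. On day 0 without Sall4, Cavin2 (318 CPM), Npr3 (176 CPM), Col8a1 (455 CPM), Ptgs2 (259 CPM) and Thy1 (483 CPM) stood above the others.

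In 4 of the named genes that passed the test, 1 arm moved against the other 3 from day 0 to day 1, and these differences were not tested. The log2 ratio of day 1 to day 0 was −0.21 for Lgr5 in the arm without Esrrb, −0.85 for Cdkn1c and −0.55 for Sox2 in the arm without Glis1, and −0.053 for Cldn3 in the arm without Jdp2.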

How the results depend on the processing

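No gene called in the comparison of day 1 with day 0 changed sign under any of the 11 alternatives run, and neither of the 2 counts (815 higher and 847 lower) came within 1.5 times under every one. The count of higher genes was 1414 with all 32 libraries in the fit, 1257 without the low-count filter, and 379 with limma-trend on log2(TPM + 1). The count of lower genes was 507 with limma-trend. Without the replicate block, so that the pairing by arm was ignored, 237 genes were higher and 323 lower. With 1 arm left out, 306 to 635 genes were higher and 435 to 693 lower, the fewest without Jdp2. The cause of these differences was not tested, except that the fits without an arm have fewer samples. Higher genes made up 42.8% of the calls with limma-trend, 42.3% without the block, 41.3% without the arm lacking Jdp2 and 55.0% with all 32 libraries. DESeq2 called 767 genes in each direction. Of the 196 named genes, 182 kept their call in DESeq2, 137 of 189 in limma-trend and 121 of 185 without the arm lacking Jdp2, and genes missing from these totals had too few libraries past the filter. Depth limits what could be called: 1 count is 0.48 to 0.726 CPM in these libraries.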

Other observations

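A few genes moved by 4-fold or more in opposite directions in different arms, and none of those named here passed the test of the day. Myrf, a membrane-bound transcription factor of myelinating cells, had 933, 1.46, 78.2 and 83.0 CPM on day 1, against 270, 23.6, 54.6 and 13.7 CPM on day 0, in the order of arms without Esrrb, Glis1, Jdp2 and Sall4. It was lower on day 1 in the arm without Glis1 and higher in the other 3. Psca, a surface antigen of epithelia, had 0, 319, 19.2 and 207 CPM on day 1, against 12.1, 98.6, 28.4 and 30.1 CPM on day 0. It was higher on day 1 in the arms without Glis1 and Sall4 and lower in the other 2. Chst1, a sulfotransferase of keratan sulfate, had 65.9, 0.485, 177 and 171 CPM on day 1, against 57.3, 4.25, 40.4 and 32.7 CPM on day 0. With 1 library per arm and day these differences between arms have no replicate and were not tested, and the genes were picked by this pattern. The mitochondrial gene mt-Atp6 is listed at 0 in 1 library of each day while its neighbours are abundant there, and it counts among the 11 tested transcripts with a log2 fold change of −0.64 ± 1.36.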
